A study of Homo sapiens with 6 samples.

Results

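Respiratory complexes III and IV and the ATP synthase are the parts of oxidative phosphorylation that pass electrons to oxygen and make ATP. Their transcripts were followed through the 42 genes that encode 9 nuclear subunits of complex III, 11 of complex IV and 15 of the ATP synthase, cytochrome c (CYCS) and 6 subunits made from mitochondrial DNA. Members were matched by symbol, out of 63086 genes counted, and all 42 passed the filter on low counts. The values come from RNA-seq of A375, an established human melanoma line. Libraries were made from 3 cultures of DUS1L knockout cells and 3 of wild-type cells, which the submitters call biological replicates. DUS1L encodes a tRNA dihydrouridine synthase. The knockout was made with CRISPR/Cas9 at the DUS1L locus and passed through clonal selection, while wild-type cells were grown alongside with no targeting. The number of clones was not given in the sources used here, so a difference between genotypes cannot be told apart from a difference between a clone and its parental population.

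The respiratory chain sits in the inner mitochondrial membrane. Complex III takes electrons from ubiquinol and hands them to cytochrome c, complex IV passes them from cytochrome c to oxygen, and both pump protons. The ATP synthase lets the protons flow back through its membrane part, Fo, which turns a rotor inside its catalytic head, F1. Most subunits are encoded in the nucleus and imported, whereas the core of each complex that carries out catalysis or proton transfer in the membrane includes proteins translated inside mitochondria from mitochondrial DNA. In melanoma, oxidative phosphorylation is known as a metabolic program that varies with the differentiation state and with drug exposure of the cells.

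Libraries held between 17121315 and 18861514 estimated counts. Levels are given as CPM, with each library scaled by its size and a TMM factor. The factor was 1.012 to 1.020 in knockout and 0.980 to 0.992 in wild-type libraries. CPM is relative to the rest of the library, so less RNA per cell and fewer cells that carry it cannot be told apart. The DUS1L transcript was at 55.4, 54.7 and 53.1 CPM in knockout libraries, against 80.0, 75.7 and 77.0 CPM in wild-type libraries (log2 fold change -0.51, SE 0.06, adjusted p = 1.7e-06). The test here and throughout was the quasi-likelihood test of edgeR. The transcript thus remained at 70.2% of the wild-type level, and a transcript count does not show what the edited locus still encodes. The first principal component separated the genotypes, and wild-type replicate 1 lay apart from the other wild-type libraries on the second. The melanocyte lineage factor SOX10 was at 481 ± 33.8 CPM in knockout and 604 ± 16.9 CPM in wild-type libraries (SD, n = 3 each), whereas the pigment cell markers PMEL, MLANA and DCT had at most 9 counts in any library and TYR had 0. The 8 melanocyte markers together, mostly SOX10, were at 479.6 to 546 CPM in knockout and 612 to 648 CPM in wild-type libraries. Of the 4 that were tested, SOX10 and S100B fell (log2 fold changes -0.33 and -0.90, adjusted p = 5.11e-05 and 0.000325), while MITF and TYRP1, at 0.07 and 0.68, were not called (adjusted p = 0.586 and 0.39). Summed fibroblast markers lay at 80.8 to 179 CPM in knockout and 33.6 to 98.0 CPM in wild-type libraries, with none of the 6 at 0. None of the 6 was called. The largest part was COL1A1, at 29.2, 101 and 28.5 CPM in knockout and 4.70, 15.9 and 37.7 CPM in wild-type libraries (adjusted p = 0.311). Mean levels of COL1A1, COL1A2 and COL3A1 were higher in knockout libraries, and those of DCN, LUM and PDGFRA were lower. Summed keratinocyte markers lay at 50.1 to 59.3 CPM in knockout and 53.2 to 58.9 CPM in wild-type libraries. Nearly all of this was KRT10, at 52.7 CPM in knockout and 54.1 CPM in wild-type libraries on average, which was not called. KRT5 and KRT1 were at 0 counts in every library. The part of such markers in the results was not tested.

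Transcripts of the 3 complexes were lower in knockout cells by small amounts that spanned both genomes. Of the 42 members, 32 fell, none rose and 10 were not called at an adjusted p under 0.05, where 20.7% of all 16046 genes tested were called lower and 20.5% higher. The knockout values lay wholly below the wild-type values in 33 members and wholly above them in none, against 25.8% and 25.4% of all genes tested. The median log2 fold change over members was -0.29, or 81.9% of the wild-type level, beside a median of -0.0042 over all genes tested. No member changed by more than 1.5-fold, and the fold changes ranged from -0.53 for ATP5F1E to 0.02 for CYCS. Of the nuclear members, 14 of 15 fell in the ATP synthase, 6 of 9 in complex III and 7 of 11 in complex IV. Among mitochondrially encoded members 5 of 6 fell. These shares were not tested against each other. Without knockout replicate 3 or without wild-type replicate 2, 26 members were called lower, beside 17.2% and 16.4% of all genes, and without wild-type replicate 3, 35 members were, beside 18.0%.

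**Figure D1:**
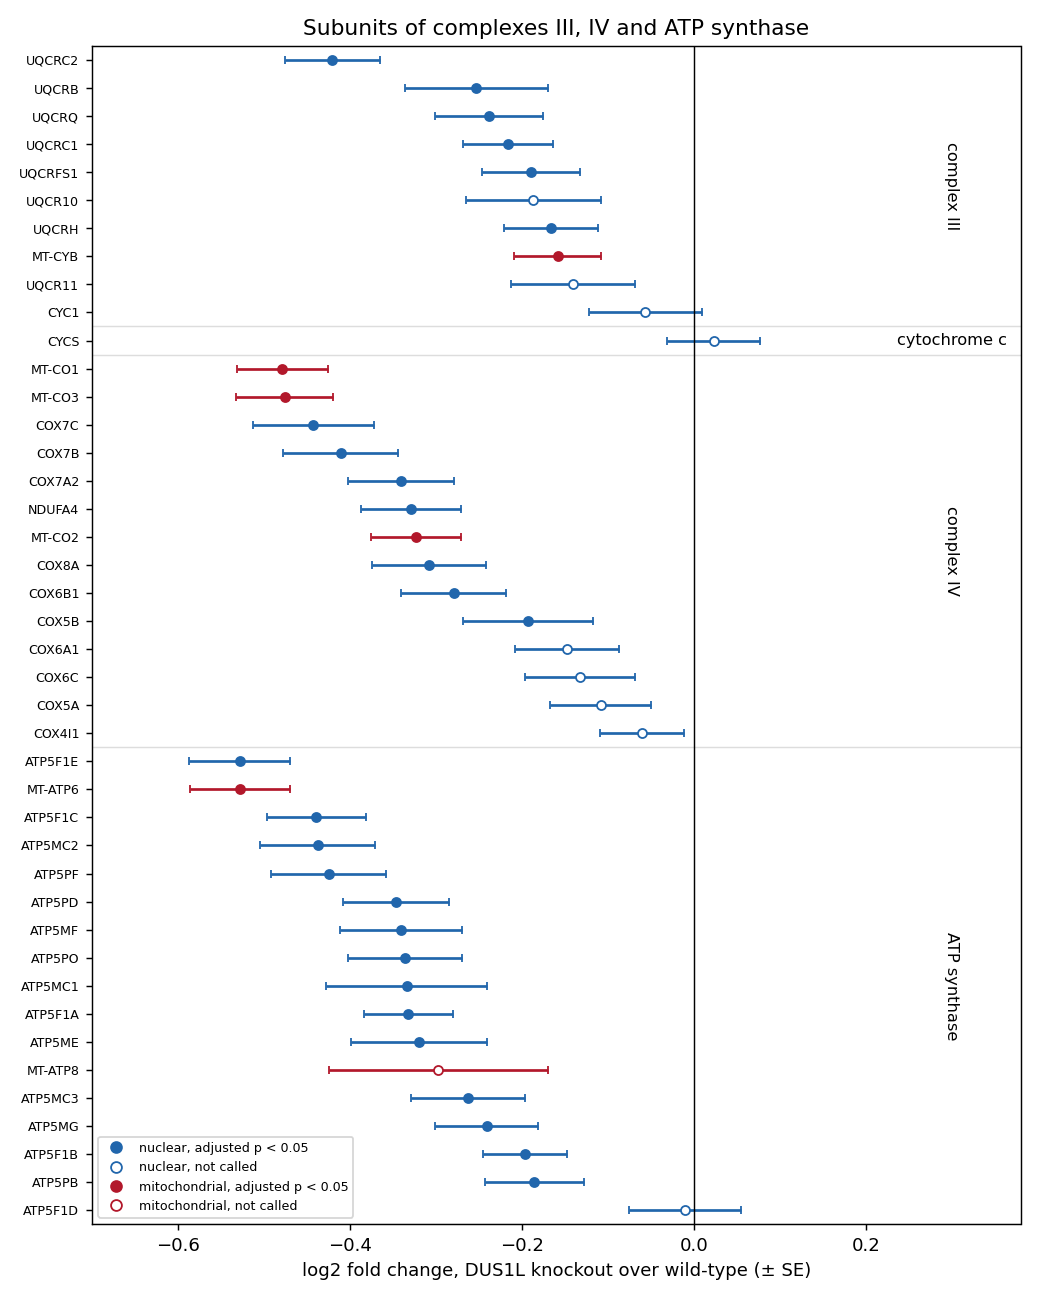
Log2 fold change of each of the 42 members, DUS1L knockout over wild-type, with its standard error as a bar, grouped by complex and coloured by the genome that encodes it. Filled points passed an adjusted p of 0.05. Points lie between -0.53 and 0.02, and only CYCS lies above 0.

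The mitochondrially encoded members belong to the membrane-embedded parts of the complexes. MT-CO1 carries the heme and copper site at which oxygen is reduced, MT-CO2 receives electrons from cytochrome c, and MT-CO3 completes the core of complex IV. MT-CYB, cytochrome b, holds the ubiquinol sites of complex III, and MT-ATP6 and MT-ATP8 belong to the membrane part of the ATP synthase. MT-CO1 was at 8356, 8718 and 8601 CPM in knockout libraries, against 12784, 11859 and 11129 CPM in wild-type libraries. Its highest knockout library was below its lowest wild-type library, and the level fell to 71.8% of wild-type (log2 fold change -0.48, SE 0.05, adjusted p = 4.56e-07). MT-CO3 was at 3225, 3710.2 and 3443 CPM in knockout libraries, against 5118, 4778 and 4538 CPM in wild-type libraries, likewise without overlap (log2 fold change -0.48, SE 0.06, adjusted p = 1.57e-06). MT-CO2 was at 3681, 3801 and 3669 CPM in knockout libraries, against 4979, 4633 and 4337 CPM in wild-type libraries (log2 fold change -0.32, SE 0.05, adjusted p = 4.75e-05). In all of these, wild-type replicate 1 was the highest of the wild-type libraries. MT-ATP6 was at 2389, 2738 and 2321 CPM in knockout libraries, against 3629.8, 3675 and 3433 CPM in wild-type libraries and fell to 69.4% (log2 fold change -0.53, SE 0.06, adjusted p = 6.18e-07), the lowest fold change of the mitochondrial members.

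MT-CYB fell less, at 2912, 3235 and 2921 CPM in knockout libraries, against 3301, 3439.5 and 3378 CPM in wild-type libraries (log2 fold change -0.16, SE 0.05, adjusted p = 0.0166). The groups did not overlap, but the call was lost without knockout replicate 1 or 3 or wild-type replicate 2, when libraries were scaled by size only, and when length and GC were corrected for (adjusted p from 0.0036 to 0.0989 over 15 alternatives). MT-ATP8 was at 155, 199 and 143 CPM in knockout libraries, against 215, 191 and 204 CPM in wild-type libraries (log2 fold change -0.30, SE 0.13, adjusted p = 0.114) and was not called. Knockout replicate 2 lay inside the wild-type range, and without that library MT-ATP8 was called lower, as it was by limma-voom and without a filter on low counts (adjusted p from 5.64e-06 to 0.351 over 15 alternatives). A ratio within a library does not depend on scaling. The ratio of MT-ATP6 to MT-CYB counts was 0.821, 0.846 and 0.795 in knockout libraries, against 1.10, 1.07 and 1.02 in wild-type libraries, and that of MT-CO1 to MT-CYB was 2.87, 2.69 and 2.95 in knockout libraries, against 3.87, 3.45 and 3.29 in wild-type libraries. Neither ratio overlapped between genotypes, and all knockout values were the lower ones. The pairs were picked with their values known and were not tested.

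**Figure D2:**
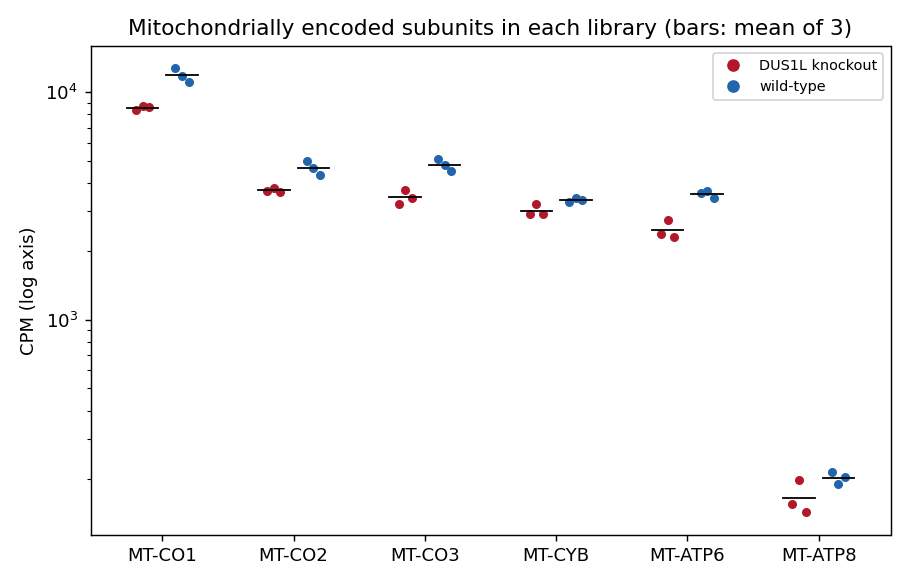
CPM, on a log axis, of the 6 mitochondrially encoded members in each of the 3 DUS1L knockout and 3 wild-type libraries, with bars at the group means. The groups are apart for all but MT-ATP8, for which knockout replicate 2, at 199 CPM, lies inside the wild-type range.

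MT-ATP8, MT-ATP6 and MT-CO3 lie end to end on a shared transcript, and their reading frames overlap, which limits how exactly reads can be given to each. The first sequence below is the stretch shared by MT-ATP8 (chrM:8366-8572) and MT-ATP6 (chrM:8527-9207), with the start codon of MT-ATP6 and the stop codon of MT-ATP8 in capitals. The second spans the junction of MT-ATP6 and MT-CO3 (chrM:9207-9990), where the last base of the MT-ATP6 stop codon is the first of the MT-CO3 start codon, in capitals. Both are from the plus strand of the hg38 reference.
MT-ATP8 and MT-ATP6 overlap, chrM:8527-8572: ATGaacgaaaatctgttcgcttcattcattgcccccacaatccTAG
MT-ATP6 and MT-CO3 junction, chrM:9187-9226: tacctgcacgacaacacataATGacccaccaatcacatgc
The shared stretch is 46 bases, a sizeable part of the 207 bases of MT-ATP8 and a small part of the 681 bases of MT-ATP6. Copies of mitochondrial genes in the nucleus are a second source of ambiguous reads. Pseudogenes named for MT-ATP6 held counts equal to 5.64% of its own in knockout and 4.40% in wild-type libraries. For the other 5 mitochondrial members that share was at most 0.09%.

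Per base of transcript, mitochondrial members were the most abundant. On the TPM scale, which divides counts by annotated transcript length, MT-CO1 was at 11699.5 ± 206 TPM in knockout and 15104 ± 860.4 TPM in wild-type libraries and MT-CO2 at 11454 ± 160.4 TPM in knockout and 13277 ± 747 TPM in wild-type libraries (SD, n = 3 each). MT-CO3 followed at 9299 ± 606 TPM in knockout and 11987 ± 582 TPM in wild-type libraries, then MT-ATP6 at 7683 ± 648 TPM in knockout and 10267 ± 182 TPM in wild-type libraries and MT-CYB at 5583 ± 308 TPM in knockout and 5778 ± 156 TPM in wild-type libraries. The order of the 6 was the same in both genotypes, with MT-ATP8 last. Falls of members were smaller in TPM than in the fitted fold changes. COX4I1, at 872 ± 22.3 TPM in knockout and 843 ± 5.39 TPM in wild-type libraries, was higher in knockout on this scale. So were CYC1 and ATP5F1D, and COX5A was nearly level. The mean TPM of the 3 mitochondrial complex IV subunits exceeded that of the 11 nuclear ones 26.0 ± 0.948 times in knockout and 29.6 ± 1.83 times in wild-type libraries. The canonical transcripts of some nuclear members are long in the annotation, 3610 bases for ATP5F1E and 5432 for CYCS, so nuclear levels per length may be understated. Summed over members, the ratio of mitochondrial to nuclear CPM was 4.22, 4.45 and 4.33 in knockout libraries, against 5.10, 4.66 and 4.81 in wild-type libraries, lower in each knockout library.

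Other genes of the mitochondrial chromosome did not all move with these members. All 7 mitochondrial protein genes outside the 3 complexes encode complex I subunits. Of these, 4 fell and 1 rose, beside 20.7% and 20.5% of all genes tested. MT-ND1 and MT-ND2, which lie upstream of MT-CO1, fell, to log2 fold changes of -0.21 and -0.32 (adjusted p = 0.00232 and 0.000101). MT-ND6, the only protein gene on the minus strand, was at 324 ± 16.8 CPM in knockout and 291 ± 15.4 CPM in wild-type libraries (log2 fold change 0.16, SE 0.05, adjusted p = 0.0267). Without knockout replicate 2 or wild-type replicate 2 or 3 it was not called, and because the strand setting of the counts was not given, reads from transcripts of the opposite strand cannot be told apart. MT-ND4 and MT-ND5 had fold changes of -0.17 and -0.15 (adjusted p = 0.011 and 0.0407), and MT-ND3 and MT-ND4L, at -0.30 and -0.01, were not called (adjusted p = 0.0603 and 0.909). MT-ND3 was called lower without knockout replicate 2 or 3, and also by limma-voom, without a filter and with a replicate term (adjusted p from 3.13e-07 to 0.266 over 15 alternatives). The MT-ND4 call was lost without knockout replicate 1 or 3 or wild-type replicate 2, and the MT-ND5 call without any library other than knockout replicate 2. MT-ND4 was also not called when length and GC were corrected for, nor MT-ND5 when libraries were scaled by size only (adjusted p from 0.000407 to 0.0686 and from 0.00804 to 0.275 over 15 alternatives). The ribosomal RNA gene MT-RNR1 rose, at 849, 932 and 898 CPM in knockout libraries, against 765, 651 and 623 CPM in wild-type libraries (log2 fold change 0.39, SE 0.07, adjusted p = 0.000216). MT-RNR2, the other ribosomal RNA gene, had 4683, 4931 and 4711 CPM in knockout libraries, against 4916, 3775 and 3679 CPM in wild-type libraries and was not called (adjusted p = 0.193), but it was called higher without wild-type replicate 1, the highest of the wild-type libraries, and also by limma-voom, without a filter and when length and GC were corrected for (adjusted p from 1.23e-06 to 0.407 over 15 alternatives). The ratio of MT-CO1 to MT-RNR1 counts was 9.85, 9.35 and 9.58 in knockout libraries, against 16.7, 18.2 and 17.9 in wild-type libraries, a pair also chosen after its values were seen. As a whole, the 13 mitochondrial protein genes took 3.23%, 3.51% and 3.27% of all counts in knockout libraries, against 4.21%, 4.12% and 3.99% in wild-type libraries. The difference of means was -0.77 percentage points (exact permutation test, two-sided, p = 0.1, the smallest that 3 against 3 libraries can give).

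**Figure D3:**
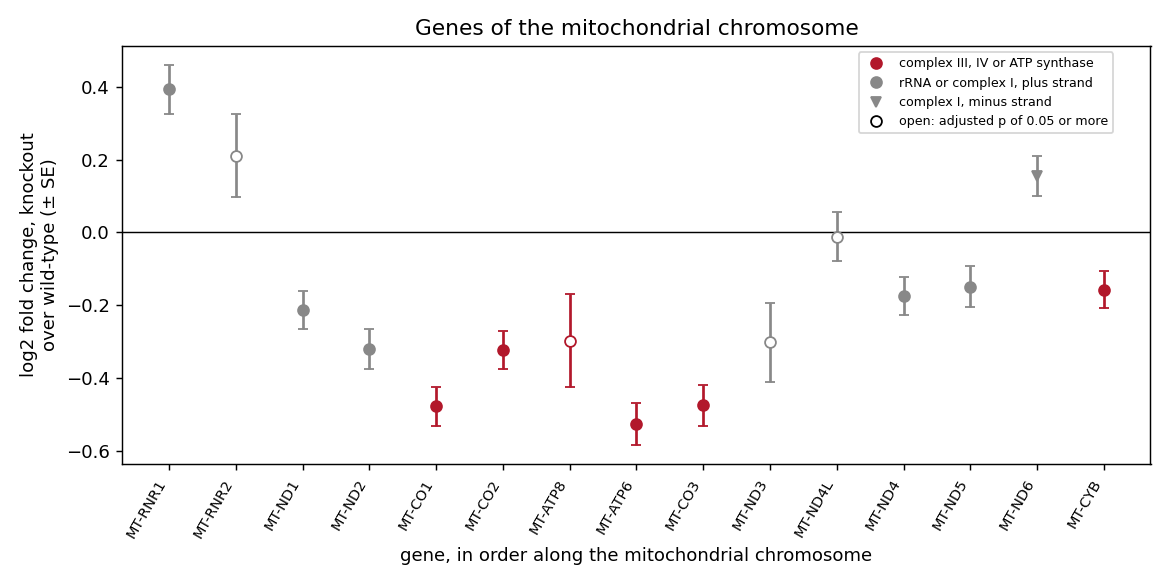
Log2 fold change, DUS1L knockout over wild-type, with its standard error for the 15 protein and ribosomal RNA genes in their order along the mitochondrial chromosome. MT-CO1, MT-ATP6 and MT-CO3 lie lowest, between -0.53 and -0.48, while the ribosomal RNA genes and MT-ND6, a triangle for the minus strand, lie above 0.

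Among the nuclear subunits of complex III, the core proteins, the Rieske protein and small subunits fell, with log2 fold changes from -0.42 to -0.17. UQCRC2, a core protein on the matrix side, was at 107, 104 and 109 CPM in knockout libraries, against 140.0, 149 and 140.0 CPM in wild-type libraries. Its fitted level was 74.7% of wild-type (log2 fold change -0.42, SE 0.06, adjusted p = 4.09e-06). Its partner UQCRC1 was at 158, 156 and 157 CPM in knockout libraries, against 173, 188 and 185 CPM in wild-type libraries (log2 fold change -0.22, SE 0.05, adjusted p = 0.00246). Neither core protein had overlapping groups, and the knockout libraries of UQCRC1 had an SD of 0.849 CPM (n = 3). UQCRFS1, the Rieske iron-sulfur protein that carries electrons toward cytochrome c1, was at 96.9, 96.1 and 96.5 CPM in knockout libraries, against 107, 115 and 108 CPM in wild-type libraries (log2 fold change -0.19, SE 0.06, adjusted p = 0.0109). UQCRQ, a small subunit that contacts cytochrome b, was at 110.2, 103 and 97.9 CPM in knockout libraries, against 120.2, 131 and 116 CPM in wild-type libraries (log2 fold change -0.24, SE 0.06, adjusted p = 0.00449). CYC1, the cytochrome c1 that reduces cytochrome c, was at 116, 108 and 102 CPM in knockout libraries, against 103, 121 and 115 CPM in wild-type libraries (log2 fold change -0.06, SE 0.07, adjusted p = 0.525). It was not called, and its groups overlapped.

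The remaining complex III members were small subunits. UQCRH, the hinge protein between cytochrome c1 and cytochrome c, and UQCRB, a subunit that binds near ubiquinone, fell, to log2 fold changes of -0.17 and -0.25 (adjusted p = 0.0186 and 0.0268). UQCR10 and UQCR11 were at -0.19 and -0.14 and were not called (adjusted p = 0.0642 and 0.127). Calls in complex III rested on single libraries more than once. Without wild-type replicate 2, UQCRFS1, UQCRH and UQCRB were not called, which left 3 of the 9. UQCRH was also not called without knockout replicate 2 or 3, nor UQCRB without knockout replicate 3 or wild-type replicate 1, and UQCR10 was called lower without wild-type replicate 3. When libraries were scaled by size only, neither UQCRH nor UQCRB was called, which left 4 of the 9, and UQCRH was not called when length and GC were corrected for (adjusted p from 0.00641 to 0.121 for UQCRH and 0.000135 to 0.163 for UQCRB over 15 alternatives). CYCS, which ferries electrons between complexes III and IV and is released in apoptosis, was at 224, 231 and 233 CPM in knockout libraries, against 241, 221 and 215 CPM in wild-type libraries (log2 fold change 0.02, SE 0.05, adjusted p = 0.763), and its groups overlapped.

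In complex IV, 7 of 11 nuclear subunits fell, with the lowest fold changes in COX7C and COX7B and those nearest to 0 in COX4I1 and COX5A. COX7C was at 150.0, 165 and 147 CPM in knockout libraries, against 230.4, 212 and 186 CPM in wild-type libraries (log2 fold change -0.44, SE 0.07, adjusted p = 8.75e-05), and COX7B at 86.8, 91.6 and 89.0 CPM in knockout libraries, against 121, 129 and 106 CPM in wild-type libraries (log2 fold change -0.41, SE 0.07, adjusted p = 5.01e-05). Both encode single-pass subunits that line the outside of the core. COX7A2, the widely expressed form of a subunit that has a muscle paralog, was at 103, 114 and 114 CPM in knockout libraries, against 142, 148 and 129.9 CPM in wild-type libraries (log2 fold change -0.34, SE 0.06, adjusted p = 0.000156). NDUFA4, first described in complex I and now known as a complex IV subunit, was at 112, 121 and 119 CPM in knockout libraries, against 151, 153 and 138 CPM in wild-type libraries (log2 fold change -0.33, SE 0.06, adjusted p = 0.00013). None of these had overlapping groups. COX4I1, which with COX5A joins MT-CO1 early in assembly, was at 319, 323 and 306 CPM in knockout libraries, against 330.4, 333 and 325 CPM in wild-type libraries. Its 3 knockout values were all lower than its wild-type values, but the difference of -0.06 (SE 0.05) was not called (adjusted p = 0.344). COX5A, at 78.9 ± 1.45 CPM in knockout and 85.0 ± 2.21 CPM in wild-type libraries, was not called either, without overlap of its groups (adjusted p = 0.15). The ratio of COX7C to COX4I1 counts was 0.471, 0.512 and 0.482 in knockout libraries, against 0.697, 0.637 and 0.574 in wild-type libraries, without overlap, for a pair chosen after its values were seen.

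COX6B1, on the intermembrane side, and COX8A, a small membrane subunit, fell, to log2 fold changes of -0.28 and -0.31 (adjusted p = 0.000921 and 0.000944). COX5B, a zinc-binding matrix subunit, was called narrowly at -0.19 (adjusted p = 0.0476), and its groups overlapped. It was not called by DESeq2 or limma-voom, with other scalings that used RLE factors or library size alone, with a minimum count of 50, after correction for length and GC, or without knockout replicate 2 or 3 or wild-type replicate 2 (adjusted p from 0.0204 to 0.24 over 15 alternatives). COX6A1 and COX6C, at -0.15 and -0.13, were not called (adjusted p = 0.0561 and 0.104), but without wild-type replicate 3 both were, and COX6A1 also without knockout replicate 1 or without a filter on low counts.

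A paralog of NDUFA4 rose. C15orf48, also called NMES1, encodes a protein known to take the place of NDUFA4 in complex IV during inflammation, and its transcript also hosts a microRNA. It was at 13.2, 11.2 and 10.2 CPM in knockout libraries, against 2.12, 2.17 and 1.69 CPM in wild-type libraries (log2 fold change 2.53, SE 0.19, adjusted p = 1.67e-09), a 5.77-fold higher level in knockout cells. NDUFA4L2, a paralog induced by hypoxia, was at 3.61, 2.25 and 3.33 CPM in knockout libraries, against 2.82, 1.63 and 1.98 CPM in wild-type libraries (log2 fold change 0.52, SE 0.28, adjusted p = 0.148) and was not called. The ratio of NDUFA4 to C15orf48 counts was 8.44, 10.9 and 11.7 in knockout libraries, against 71.5, 70.7 and 81.7 in wild-type libraries. NDUFA4 still had more counts than its paralog in every knockout library, with counts not divided by length. The tissue-specific subunits COX4I2, COX6A2, COX7B2 and COX8C had no count in any library, and COX7A1 and COX6B2 had at most 12. COX7A2L, which links complex III to complex IV, had 0.14 (adjusted p = 0.0639).

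**Figure D4:**
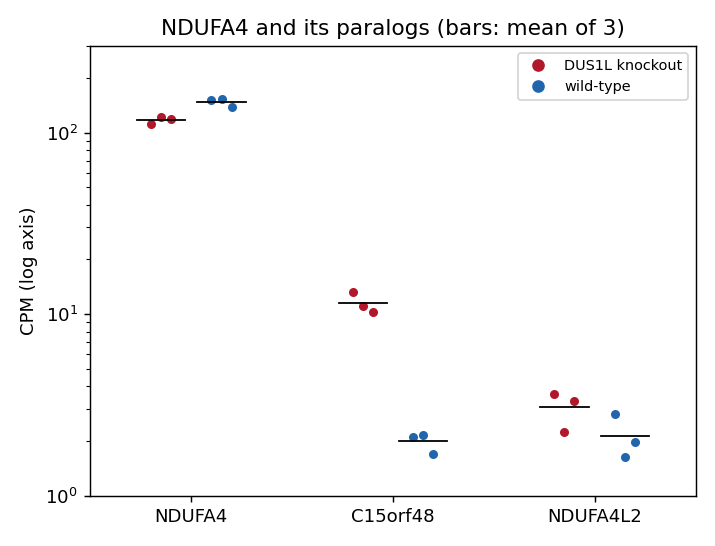
CPM, on a log axis, of NDUFA4 and its paralogs in each DUS1L knockout and wild-type library, with bars at the group means. NDUFA4 is lower and C15orf48 higher in all 3 knockout libraries, and the groups overlap for NDUFA4L2.

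In the ATP synthase, 14 of the 15 nuclear members fell and the same 14 had groups that did not overlap, with ATP5F1D as the exception. The F1 head is built from alpha and beta subunits around a rotor of gamma, delta and epsilon. ATP5F1E, the epsilon subunit and the smallest of the head, was at 207, 199 and 192 CPM in knockout libraries, against 277, 315 and 271 CPM in wild-type libraries. It fell to 69.4% of wild-type (log2 fold change -0.53, SE 0.06, adjusted p = 5.08e-07), the lowest fold change of any nuclear member. ATP5F1C, the gamma shaft, was at 109.6, 117 and 119 CPM in knockout libraries, against 166, 151 and 151 CPM in wild-type libraries (log2 fold change -0.44, SE 0.06, adjusted p = 4.43e-06). ATP5F1A, the alpha subunit, was at 239, 261 and 259.8 CPM in knockout libraries, against 314, 329 and 312 CPM in wild-type libraries (log2 fold change -0.33, SE 0.05, adjusted p = 3.36e-05), and ATP5F1B, the catalytic beta subunit and the nuclear member with the most counts, at 672 ± 25.9 CPM in knockout and 769.7 ± 19.2 CPM in wild-type libraries (log2 fold change -0.20, SE 0.05, adjusted p = 0.0028). ATP5F1D, the delta subunit that sits beside epsilon in the rotor, was at 70.5, 68.8 and 64.6 CPM in knockout libraries, against 64.7, 70.6 and 70.1 CPM in wild-type libraries. Its groups overlapped and it was not called (log2 fold change -0.01, SE 0.06, adjusted p = 0.916). After correction for length and GC it was called higher, at 0.18 (adjusted p from 0.0156 to 0.989 over 15 alternatives). The ratio of ATP5F1E to ATP5F1D counts was 2.94, 2.90 and 2.97 in knockout libraries, against 4.28, 4.46 and 3.87 in wild-type libraries, a pair chosen after its values were seen.

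The peripheral stalk holds the head still while the rotor turns, and all 4 of its members fell. ATP5PF, coupling factor 6, was at 63.4, 69.5 and 64.1 CPM in knockout libraries, against 88.8, 93.9 and 81.6 CPM in wild-type libraries (log2 fold change -0.42, SE 0.07, adjusted p = 3.53e-05). ATP5PD and ATP5PO, the d subunit and the oligomycin sensitivity protein, fell, to log2 fold changes of -0.35 and -0.34 (adjusted p = 0.000131 and 0.000356). ATP5PB, the b subunit, fell least of the stalk, by 0.19 (adjusted p = 0.0132), and was not called without knockout replicate 3 or when libraries were scaled by size only (adjusted p from 0.00136 to 0.0967 over 15 alternatives). In the membrane part, ATP5MF, ATP5ME and ATP5MG, the f, e and g subunits near the dimer contact, fell by 0.34, 0.32 and 0.24 (adjusted p = 0.000715, 0.00265 and 0.00267).

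ATP5MC1, ATP5MC2 and ATP5MC3 are separate genes for the c subunit of the proton-driven ring, and are known to yield the same mature protein from precursors with different import sequences. ATP5MC2 was at 137, 160.3 and 148 CPM in knockout libraries, against 189, 220.2 and 194 CPM in wild-type libraries (log2 fold change -0.44, SE 0.07, adjusted p = 4.27e-05). ATP5MC3 was at 98.1, 115 and 102 CPM in knockout libraries, against 132, 129 and 116 CPM in wild-type libraries (log2 fold change -0.26, SE 0.07, adjusted p = 0.00332). ATP5MC1, with the fewest counts of the paralogs, was at 29.97, 35.0 and 27.0 CPM in knockout libraries, against 36.3, 42.2 and 37.3 CPM in wild-type libraries (log2 fold change -0.33, SE 0.09, adjusted p = 0.00717), and was not called without knockout replicate 3 or wild-type replicate 2 (adjusted p from 0.000462 to 0.0593 over 15 alternatives). All of these paralogs fell in the fit over all libraries. The ratio of ATP5MC2 to ATP5MC3 counts was 1.39, 1.40 and 1.46 in knockout libraries, against 1.43, 1.71 and 1.67 in wild-type libraries, and that of ATP5MC1 to ATP5MC3 was 0.306, 0.305 and 0.265 in knockout libraries, against 0.275, 0.327 and 0.321 in wild-type libraries. Both ratios overlapped between genotypes. Reads that fit more than 1 paralog may have been divided by the authors' counting.

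**Figure D5:**
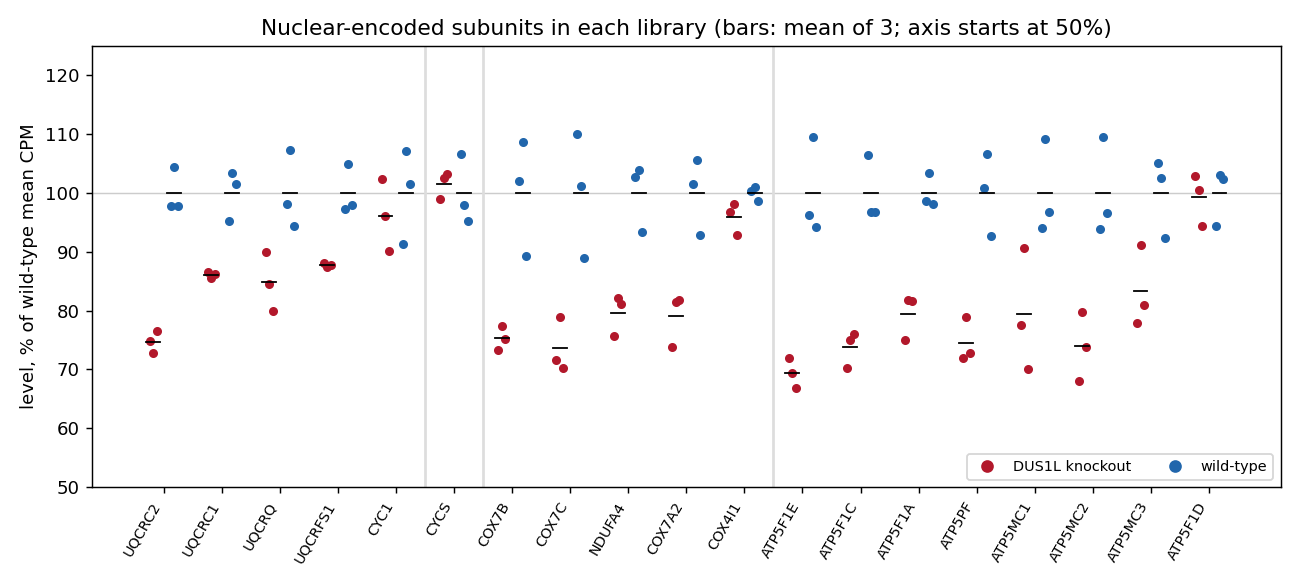
Level of 19 nuclear members in each of the 3 DUS1L knockout and 3 wild-type libraries, as a percentage of the wild-type mean CPM on an axis that starts at 50%, with bars at the group means. ATP5F1E has the lowest fitted level in knockout libraries, 69.4% of wild-type, and the groups overlap for CYC1, CYCS and ATP5F1D.

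Nuclear respiratory genes are known as targets of the factors NRF1, of the ETS family (GABP) and YY1, so promoter sequences were read for the members. RefSeq promoters (GRCh38.p14, 250 bases before to 50 after the start) were matched for 28 of the 36 nuclear members and searched on both strands for the letters GCGCA, any base and GCGC (NRF1), CCGGAAG (ETS) and AAGATGGCG (YY1). The NRF1 letters were found in 7 of 28 promoters, the ETS letters in 12 and the YY1 letters in 2. Over the promoters of 11574 genes tested, they were found in 11.2%, 18.5% and 3.8%, and over all 27305 promoters in 6.28%, 10.67% and 1.85%. At least 1 of them was present in 13 of 22 promoters of members that fell and in 4 of 6 of members not called. That is 60.7% of the 28 matched members, beside 29.8% of the 11574 promoters of genes tested. The 120 bases before the start are printed for ATP5F1E, the nuclear member with the smallest p. For each complex they are printed for the called member with the smallest p among those with a match in this stretch. They are also printed for UQCR11, the uncalled member with the largest p among those with a match there. Stretches with more than 30 bases inside the member's own annotated gene were left out. Capitals mark the matches.
ATP5F1E, chr20:59032336-59032455, minus strand: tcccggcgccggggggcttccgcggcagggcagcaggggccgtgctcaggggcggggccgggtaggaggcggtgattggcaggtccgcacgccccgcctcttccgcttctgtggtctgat
UQCRQ, chr5:132866522-132866641, plus strand: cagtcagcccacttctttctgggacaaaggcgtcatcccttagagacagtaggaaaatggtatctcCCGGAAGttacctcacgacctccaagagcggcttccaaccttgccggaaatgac
COX6B1, chr19:35648203-35648322, plus strand: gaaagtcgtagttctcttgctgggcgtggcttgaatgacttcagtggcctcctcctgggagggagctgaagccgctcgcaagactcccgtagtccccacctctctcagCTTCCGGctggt
ATP5F1C, chr10:7788057-7788176, plus strand: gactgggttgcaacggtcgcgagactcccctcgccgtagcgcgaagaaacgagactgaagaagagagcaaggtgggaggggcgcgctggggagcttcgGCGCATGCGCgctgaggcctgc
UQCR11, chr19:1605463-1605582, minus strand: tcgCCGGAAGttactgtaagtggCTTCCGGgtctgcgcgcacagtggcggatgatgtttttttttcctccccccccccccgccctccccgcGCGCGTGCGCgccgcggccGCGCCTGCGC
ATP5F1E had no match in this stretch, and UQCR11 had matches to both NRF1 and ETS letters. Both genes were picked by their p-values, and a link between matches and calls was not tested. A match describes letters in this window and not binding.

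Lists of related genes are described by their counts, to be read against the 20.7% of all tested genes called lower and the 20.5% called higher. Complex II, which feeds electrons to the chain without pumping protons, fell in 3 of 4 subunits, led by SDHA at 108 ± 2.08 CPM in knockout and 129.5 ± 3.92 CPM in wild-type libraries (log2 fold change -0.27, SE 0.05, adjusted p = 0.000533). SDHB and SDHD were at -0.18 and -0.19 (adjusted p = 0.00792 and 0.03), and SDHD was not called when any library other than wild-type replicate 1 was left out. Of the 13 alternative and accessory subunits, 7 were tested, 3 fell and 1, C15orf48, rose. The fallers were the ATP synthase subunits ATP5MK and ATP5MJ and the inhibitor ATP5IF1, which fell by 0.29, 0.35 and 0.34 (adjusted p = 0.00231, 0.00374 and 0.000799). Among 29 complex IV assembly factors, 11 fell, 4 rose and 14 were not called (median -0.09). COA7, a factor of the intermembrane space, was at 62.9 ± 1.61 CPM in knockout and 40.0 ± 1.71 CPM in wild-type libraries (log2 fold change 0.65, SE 0.07, adjusted p = 2.41e-07), and COX10, which makes heme O, at 42.8 ± 1.03 CPM in knockout and 31.2 ± 1.26 CPM in wild-type libraries (log2 fold change 0.45, SE 0.07, adjusted p = 5.7e-05). COA1, a factor for the early steps, fell (log2 fold change -0.47, SE 0.07, adjusted p = 1.7e-05).

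None of 9 complex III assembly factors fell and 2 rose, and the share that rose is near the 20.5% of all genes. The risers were UQCC1 at 0.26 and LYRM7, which helps insert the Rieske protein, at 0.36 (adjusted p = 0.00363 and 0.0119). LYRM7 was not called without wild-type replicate 1. No ATP synthase assembly factor of 5 was called (adjusted p from 0.0745 to 0.724). For mitochondrial DNA maintenance and transcription, 3 of 15 genes fell and 2 rose, beside 20.7% and 20.5% of all genes, and the share that fell is near the background. TFB1M, which methylates the small mitochondrial ribosomal RNA, was at 25.0 ± 1.87 CPM in knockout and 37.5 ± 2.78 CPM in wild-type libraries (log2 fold change -0.59, SE 0.09, adjusted p = 1.93e-05), while the helicase gene TWNK was at 0.29 (adjusted p = 0.00269). PRIMPOL, a primase and polymerase gene, was at -0.41 (adjusted p = 0.00885) and was not called without knockout replicate 3. For mitochondrial RNA processing and stability, 1 of 15 fell and 2 rose, both shares below those of all genes. ELAC2, which trims the 3′ ends of tRNA precursors, fell (log2 fold change -0.28, SE 0.06, adjusted p = 0.000685), and the poly(A) polymerase gene MTPAP and the RNA-binding factor gene FASTKD5 rose (0.43 and 0.33, adjusted p = 0.000723 and 0.000685). Of 8 nuclear regulators of respiratory genes, none fell and 2 rose, the coactivator PPRC1 (log2 fold change 0.32, SE 0.06, adjusted p = 0.000443) and GABPB1, a subunit of GABP (log2 fold change 0.27, SE 0.07, adjusted p = 0.00265). That count of higher genes is also near the 20.5% of all genes. NRF1 itself was at 17.0 ± 0.349 CPM in knockout and 17.6 ± 2.42 CPM in wild-type libraries (adjusted p = 0.784).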

How the data were processed

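The authors deposited 1 table of expected counts, estimated reads per gene that need not be whole, with a column for each of 6 libraries. Per the submitters' processing notes, reads were placed on GRCh38 (hg38). Neither aligner nor counter, strand setting or annotation is given in the sources used here. Expected counts were fractional in some library for 13 of the 42 members, and were rounded for tests. Symbols, positions and lengths come from GENCODE release 44, which matched 62541 of 63086 identifiers.

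Genes were kept by filterByExpr with a minimum count of 10, scaled by TMM and tested over all 16046 with edgeR 4.0.16 (R 4.3.3), as a robust quasi-likelihood fit with genotype as the only term. P-values are two-sided, Benjamini-Hochberg adjusted and called under 0.05. They weigh the difference between genotypes against the spread between these libraries. A count of 3, the lowest level read, is 0.159 to 0.175 CPM by library size alone, without TMM factors, and covers counting error only. TPM values were computed from the deposited counts and the length of the canonical transcript. DESeq2 1.42.0, limma-voom (3.58.1), other scalings and filters, a length and GC correction, a replicate term and leaving out each library were alternatives. Libraries of a genotype differed by more than sampling noise (chi-square per degree of freedom 3.72 to 7.14), so none was taken as a repeat.

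The members and lists were chosen with earlier results of these data known. Values in every library are given for mitochondrial members, CYCS, the ATP5MC paralogs and, per complex, the 4 nuclear members with the smallest p and the 1 with the largest. Up to 3 members with the smallest p of each other list are named, and C15orf48 and NDUFA4L2 are named as paralogs of NDUFA4. Beyond that rule all mitochondrial complex I genes, ATP5MJ, COX7A2L and NRF1 are named, chosen after their values were seen. The same holds for the tissue-specific subunits with few or no counts. The promoter motifs were chosen after the member values were seen.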

Additional observations from a re-analysis of the deposited data

How the results depend on the processing

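Members called lower numbered 26 to 35 under the 15 alternatives, against 32, while 11.3% to 24.5% of all genes tested were called lower. The lowest share was without a filter and the highest with a minimum count of 50. Members called higher numbered 0 except after correction for length and GC, where 1 was, beside 20.9% of all genes. That member was ATP5F1D, at 0.176, against -0.0103. ATP5F1D was at 0.0351 when libraries were scaled by size only. After the length and GC correction CYC1 was at 0.0296, CYCS at -0.0055 and COX4I1 at 0.00561, with signs opposite to those reported, and the complex I gene MT-ND4L was at 0.0142, or 0.034 with library size alone. None of these 4 genes was called in either sign. The cause was not tested. Library size alone shifts the median of all genes to 0.041. Leaving out each library in turn gave 3 to 7 called lower in complex III, 6 to 9 in complex IV, 12 to 14 in the ATP synthase and 4 to 6 among mitochondrial members, with fewer libraries to test. Their medians ranged over -0.22 to -0.17, -0.33 to -0.22, -0.36 to -0.28 and -0.47 to -0.35, the last widest without knockout replicate 2. Over the same omissions ATP5F1D ranged from -0.0499 to 0.0224, CYCS from -0.0118 to 0.0717 and MT-ND4L from -0.0591 to 0.0742, and the share of mitochondrial protein genes differed by -0.856 to -0.716 percentage points. Same-numbered libraries did not deviate together (correlations -0.030, -0.0014 and 0.026), so the numbers were not taken as pairs. With a replicate block, 6, 7, 14 and 5 members were called lower in complex III, complex IV, the ATP synthase and the mitochondrial set. These counts were the same as without it, and 19.4% of all genes were called lower with it. The medians were -0.19, -0.28, -0.33 and -0.40, and the share of mitochondrial protein genes differed by -0.77 points. The block changed no call of a member, and among other named genes MT-ND5 and SDHD were no longer called and MT-ND3 was.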
